A study of Mus musculus with 9 samples.

Results

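The genes described here are 50 RNA-binding proteins that steer pre-mRNA splicing, out of 51912 genes in the deposited table. They were chosen by name. Each symbol matched exactly 1 entry of the table through the GENCODE M21 annotation of GRCm38 (mm10). They fall into 11 SR proteins, 6 SR-related and Tra2 proteins, 19 hnRNPs, 2 PTB proteins, 5 Nova and Rbfox proteins and 7 Celf and Elavl proteins. RNA was sequenced from midbrains dissected at E14.5 from C57Bl/6 mouse embryos of 3 genotypes, to find genes that depend on the homeobox factor *Nkx2.9*. In the mutant allele, LacZ replaces the first *Nkx2.9* exon. *Nkx2.9*LacZ/LacZ embryos carry it on both alleles, *Nkx2.9*LacZ/+ embryos on 1 allele, and *Nkx2.9*+/+ embryos on neither. The methods name no Cre driver for this allele. Each library pooled 2 midbrains of a genotype, and 3 libraries were made per genotype, so the p-values below measure the spread between libraries of pooled tissue.

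The columns of values carry a genotype and no replicate number. Libraries are therefore named by their column. Columns 1 to 3 are headed ko (*Nkx2.9*LacZ/LacZ), 4 to 6 het (*Nkx2.9*LacZ/+) and 7 to 9 wt (*Nkx2.9*+/+), and are called ko-labelled, het-labelled and wt-labelled. The targeted gene, listed as *Nkx2-9*, had 3 to 6 reads in the ko-labelled libraries, 0 to 7 in the het-labelled and 0 to 2 in the wt-labelled. The gene was thus no lower under the ko label than under the wt label, so every direction below is one between labels. Whether the ko and wt headings of the columns are exchanged cannot be told from so few reads, and if they were, each sign in that comparison would turn. The paper reports *En1*, *En2* and *Pax7* as upregulated in the mutant by RNA sequencing, and its supplementary list gives *Srrm2* a negative log2 fold change. Under these headings *En1*, *En2* and *Pax7* were lower and *Srrm2* higher in ko-labelled than in wt-labelled libraries, which is the reverse. The reason was not tested. The series title names cortical tissue, whereas sample labels and methods name the midbrain. The summed normalized count of 6 midbrain markers (*En1*, *En2*, *Otx2*, *Pax7*, *Th*, *Foxa2*) was 982 to 1630 per library.

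An exon is joined or skipped according to which proteins sit on the pre-mRNA around it. SR proteins bind exonic enhancers and recruit the spliceosome, while hnRNPs and PTB proteins mostly silence exons. Many of the Nova, Rbfox, Celf and Elavl proteins add neuron-specific patterns. In the developing brain, the change from Ptbp1 to Ptbp2 and the rise of Srrm4, Nova and Rbfox proteins accompany the change from progenitor to neuron. Many of these factors also limit their own level, by including an exon with an early stop codon, or skipping an exon that keeps the reading frame, so that the mRNA is destroyed by nonsense-mediated decay.

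Transcripts of this kind are in the annotation, which does not by itself show that a factor limits its own level. The shares below were not matched for the number of annotated transcripts per gene. A transcript annotated for nonsense-mediated decay existed for 28 of the 50 members (56%) and for 3725 of the 13323 protein-coding genes tested (28%). It existed for 15 of 17 SR, SR-related and Tra2 genes, 9 of 19 hnRNPs and 2 of 12 Nova, Rbfox, Celf and Elavl genes. The deposited values are sums over all transcripts of a gene, so productive and destroyed mRNAs cannot be told apart in them. The exons are shown because a whole-gene count holds reads of both forms. In *Ptbp1* and *Ptbp2* the exon concerned is a 34-base coding exon whose skipping shifts the frame, since 34 leaves a remainder of 1 when divided by 3. The exon of *Ptbp1* lies at chr10:79862014-79862047 on the plus strand and that of *Ptbp2* at chr3:119724612-119724645 on the minus strand (GRCm38). The 2 exons share 26 of 34 bases, and capitals mark the 8 bases at which they differ.
Ptbp1: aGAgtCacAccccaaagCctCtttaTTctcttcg
Ptbp2: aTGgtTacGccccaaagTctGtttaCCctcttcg

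The other 6 genes shown hold the opposite event in the annotation, an extra exon that lies in no transcript annotated as protein-coding. The first bases of such exons are printed below up to the in-frame stop codon, which is in capitals. *Srsf3*, *Srsf7*, *Tra2a*, *Tra2b* and *Hnrnpl* stand for their classes, and *Srrm2* is shown because the comparison of genotypes turns on it. The exons lie in *Srsf3* (chr17:29039454-29039909, plus strand, 456 bases), *Srsf7* (chr17:80204622-80205081, minus strand, 460 bases), *Tra2a* (chr6:49252803-49253108, minus strand, 306 bases), *Tra2b* (chr16:22258986-22259261, minus strand, 276 bases), *Hnrnpl* (chr7:28817335-28817404, plus strand, 70 bases) and *Srrm2* (chr17:23811817-23812077, plus strand, 261 bases). The stop ends 28 bases into the exon of *Srsf7*, 34 into that of *Srsf3* and 144 into that of *Tra2a*. The exons of the paralogs *Tra2a* and *Tra2b* both open with the bases gttaatgtt.
Srsf3: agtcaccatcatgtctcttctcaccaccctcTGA
Srsf7: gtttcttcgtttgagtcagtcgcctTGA
Tra2a: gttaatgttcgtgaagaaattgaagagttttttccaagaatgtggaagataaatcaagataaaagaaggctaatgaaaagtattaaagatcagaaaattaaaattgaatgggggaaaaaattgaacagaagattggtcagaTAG
Tra2b: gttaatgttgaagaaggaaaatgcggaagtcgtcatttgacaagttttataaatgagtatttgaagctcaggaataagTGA
Hnrnpl: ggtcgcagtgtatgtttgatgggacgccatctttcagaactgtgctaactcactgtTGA
Srrm2: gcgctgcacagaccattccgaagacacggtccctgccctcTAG

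The reads counted on genes were 1692963 to 5942192 per library, with the lowest in column 7 and the next lowest, 2584074, in column 4. All 50 members passed the minimum mean normalized count of 5 that 16993 genes passed. The smallest read count of a member in any library was 30, for *Srsf9* in column 7. Together the members took 1.27% to 1.45% of the counted reads. In whole tissue, fewer cells of a type and less RNA per cell cannot be told apart.

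Levels were compared between genes as normalized counts per kilobase of merged exons, a scale that removes gene length. On this scale the 50 members ran from 32.4 to 721 with a median of 122, while the 13323 protein-coding genes tested had a median of 26.4. Every member lay above that median, and 27 of 50 were in the top 10% of these genes. The order of the members was broadly kept per kilobase of the longest transcript (Spearman correlation of 0.94 across the 50 members, which shares the counts). The exceptions include *Ptbp2*, which moved from rank 20 to 9, and *Celf4*, which moved from 13 to 4. The ends changed too, with *Hnrnpa2b1* (1042) and *Hnrnpk* (823) above *Hnrnpa1* (729) and *Srsf4* the lowest at 40.4, while *Hnrnpll* moved from rank 47 to 38 and *Rbfox3* from 50 to 45.

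**Figure D1:**
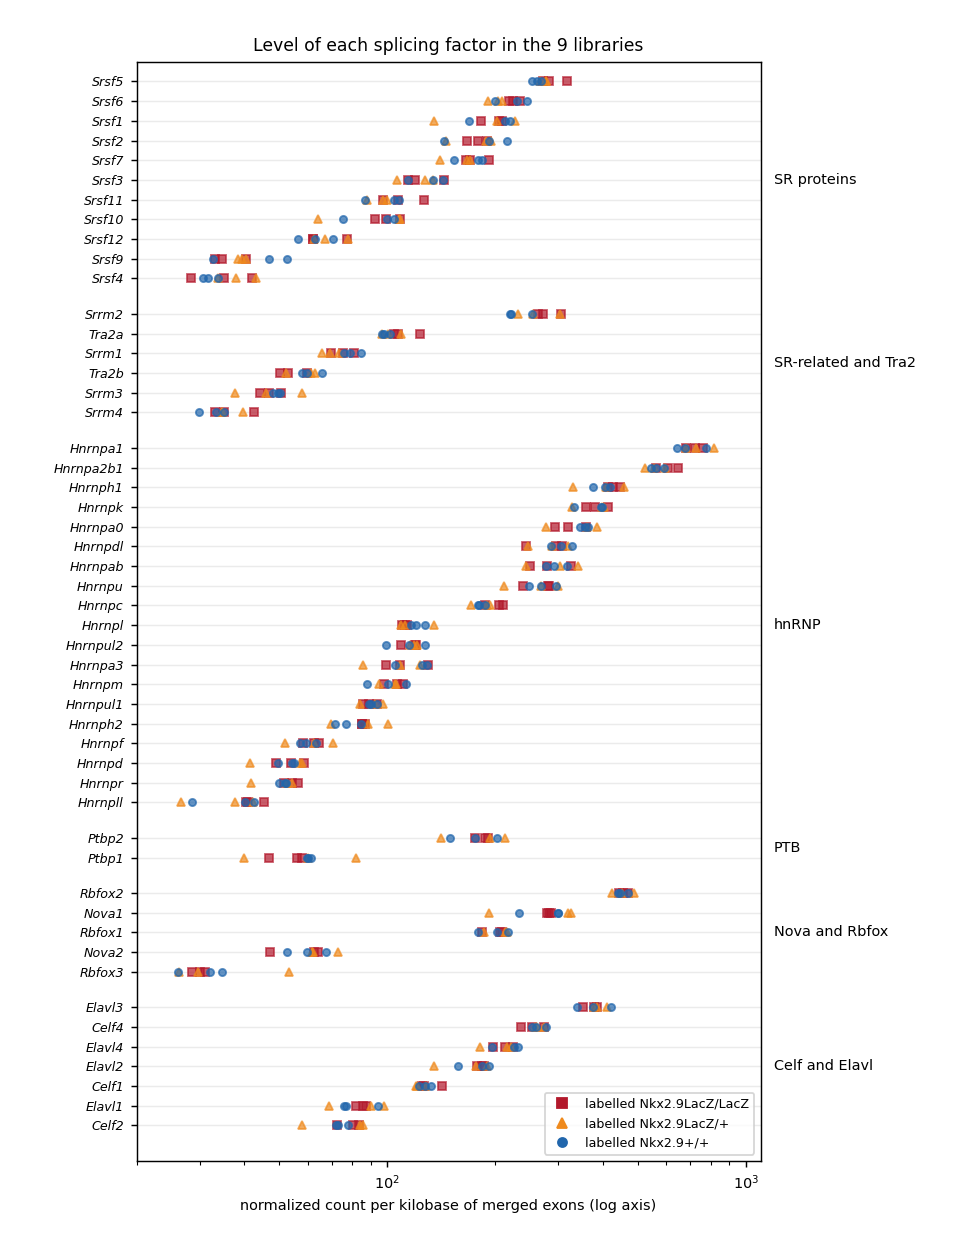
Level of each of the 50 splicing factors, with 1 point per library coloured by labelled genotype, on a log axis of normalized count per kilobase of merged exons. Levels span 32.4 (*Rbfox3*) to 721 (*Hnrnpa1*), a far wider range than that of the 9 libraries within a gene, and the triangle at the edge of *Rbfox3*, *Ptbp1* (right) and *Nova1* (left) is column 4.

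The hnRNPs, abundant nuclear proteins that coat nascent RNA, held ranks 1 and 2. *Hnrnpa1*, a silencer of exons, was at 721 ± 55.5 per kilobase (SD, n = 9 libraries), with normalized counts of 2399, 2155 and 2278 in the ko-labelled libraries, 2288, 2153 and 2577 in the het-labelled and 2441, 2024 and 2139 in the wt-labelled. *Hnrnpa2b1*, also an RNA transport factor, was at 577 ± 36.7 per kilobase (SD, n = 9) and had 4255, 3692 and 3986, then 3452, 3664 and 3927, then 3892, 3713 and 3594 in the same order of genotypes. The lowest library of *Hnrnpa1* (642 per kilobase) lay just under the highest of *Hnrnpa2b1* (646), so these neighbours overlapped in their spread. *Hnrnph1*, a factor that binds runs of G, was at rank 4 with 409 ± 37.8 per kilobase (SD, n = 9), with 2610, 2414 and 2491, then 1933, 2390 and 2673, then 2193, 2439 and 2364. Its lowest value was that of column 4. *Hnrnpk*, a poly(C)-binding protein, was at rank 6 with 378 ± 31.6 per kilobase (SD, n = 9). At the other end, *Hnrnpll* was at rank 47 with 38.3 ± 6.43 per kilobase (SD, n = 9). It had 528, 473 and 477, then 310, 441 and 494, then 334, 470 and 498, and columns 4 and 7 were its lowest.

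The other hnRNPs filled the range between. *Hnrnpa0*, *Hnrnpab* and *Hnrnpdl* were at 340, 292 and 292 per kilobase, and *Hnrnpu*, a nuclear scaffold protein that binds chromatin, was at 266. *Hnrnpc*, which binds runs of U, was at 190 per kilobase. A middle group from 90.6 to 117 per kilobase held *Hnrnpl*, *Hnrnpul2*, *Hnrnpa3*, *Hnrnpm* and *Hnrnpul1*. *Hnrnph2*, *Hnrnpf*, *Hnrnpd* (AUF1, which binds AU-rich elements) and *Hnrnpr* were at 83.2, 61.1, 53.0 and 51.7, the last with a merged exon length of 22199 bases. *Hnrnpul1* was the steadiest hnRNP, with 727 to 844 normalized counts over the 9 libraries, and *Hnrnpll* the most variable. The coefficient of variation was 4.68% and 16.8%.

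Part of the reads of the hnRNPs may be assigned elsewhere. Pseudogenes of at least 95% identity over at least 300 bases were annotated for 13 members. For *Hnrnpa3* there were 26 such copies, which held 31.01% of the reads of gene and copies together, and for *Hnrnpa1* there were 9, which held 15.05%. The share was 8.47% for *Hnrnpf*, 8.04% for *Srsf3* and 6.83% for *Hnrnpk*. The levels of these members are uncertain, as the reads may stem from the gene or the copy. These shares need not bound the uncertainty, since they cover only reads assigned to a gene or a copy.

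The SR proteins spanned 35.2 to 276 per kilobase with a median of 126. *Srsf5* and *Srsf6*, which bind exonic enhancers, led them at 276 and 217 per kilobase, and *Srsf1*, the founding member, was at 196. *Srsf2*, *Srsf7* and *Srsf3*, the last also an exporter of mRNA, were at 180, 169 and 126 per kilobase. *Srsf11*, *Srsf10*, a splicing repressor when dephosphorylated, and *Srsf12* were at 102, 95.7 and 66.6. *Srsf10* and *Srsf1* were lowest in column 4, with 448 and 771 normalized counts against highest values of 761 and 1302. *Srsf4* was the lowest of the family, at 35.2 ± 5.0 per kilobase (SD, n = 9), with normalized counts of 101, 125 and 150, then 135, 120 and 153, then 109, 120 and 113 in the order ko-labelled, het-labelled and wt-labelled. *Srsf9* was close to it at 39.9 ± 6.49 per kilobase (SD, n = 9), with 57.2, 54.9 and 67.0, then 63.6, 66.6 and 65.3, then 77.6, 54.0 and 86.9. The 5 lowest members (*Rbfox3*, *Srsf4*, *Srrm4*, *Hnrnpll* and *Srsf9*) overlapped one another in their libraries, so their order is within the spread.

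Among the SR-related genes, *Srrm2*, a scaffold of nuclear speckles where splicing factors are stored, was far above the rest at 259 per kilobase. *Srrm3* and *Srrm4*, activators of microexons in neurons, were low, at 47.9 ± 5.49 and 35.4 ± 3.69 per kilobase (SD, n = 9). *Srrm4* had 288, 305 and 368, then 345, 301 and 301, then 305, 289 and 259. *Srrm3* had 300, 284 and 324, then 372, 241 and 295, then 308, 317 and 323, and its highest value was that of column 4. The paralogs *Tra2a* and *Tra2b*, activators that bind GA-rich enhancers, were at 104 and 58.1 per kilobase.

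*Ptbp2*, the neural PTB protein, was above *Ptbp1*, the form of progenitors and non-neural cells, in every library. *Ptbp1* had 275, 265 and 222 in the ko-labelled libraries, 388, 285 and 189 in the het-labelled and 284, 291 and 286 in the wt-labelled. *Ptbp2* had 1759, 1613 and 1723, then 1299, 1959 and 1782, then 1376, 1858 and 1611. The ratio of *Ptbp2* to *Ptbp1* per kilobase had a median of 3.30 and ran from 1.73 in column 4 to 4.86 in column 6, both het-labelled. The wt-labelled libraries lay between 284 and 291 in *Ptbp1*, whereas the het-labelled held both the lowest and the highest value of all 9.

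Among the Nova and Rbfox genes, *Rbfox2* led at 454 ± 19.1 per kilobase (SD, n = 9). It was the steadiest of the 50 members, with a coefficient of variation of 4.20% over the 9 libraries. It had 3607, 3829 and 3714, then 3440, 3684 and 3967, then 3641, 3820 and 3593. *Rbfox1* was at 202 per kilobase, with 811, 911 and 922, then 821, 936 and 950, then 892, 955 and 791. *Rbfox3*, known as the mature neuron antigen NeuN, was the lowest member at 32.4 ± 8.25 per kilobase (SD, n = 9) and the most variable, with a coefficient of variation of 25.4%. Its normalized counts were 181, 166 and 175, then 310, 173 and 153, then 186, 152 and 202, so column 4 stood alone. *Nova1*, at 280 per kilobase, had 2476, 2447 and 2502, then 1682, 2798 and 2847, then 2035, 2615 and 2627. *Nova2*, at 61.1 per kilobase, had 395, 525 and 538, then 610, 519 and 516, then 564, 440 and 499. Column 4 thus held the lowest *Nova1* and the highest *Nova2* of all libraries, and the ratio of *Nova1* to *Nova2* per kilobase was 2.64 there, 3.46 in column 7 and 4.45 to 6.00 in the other 7 libraries.

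**Figure D2:**
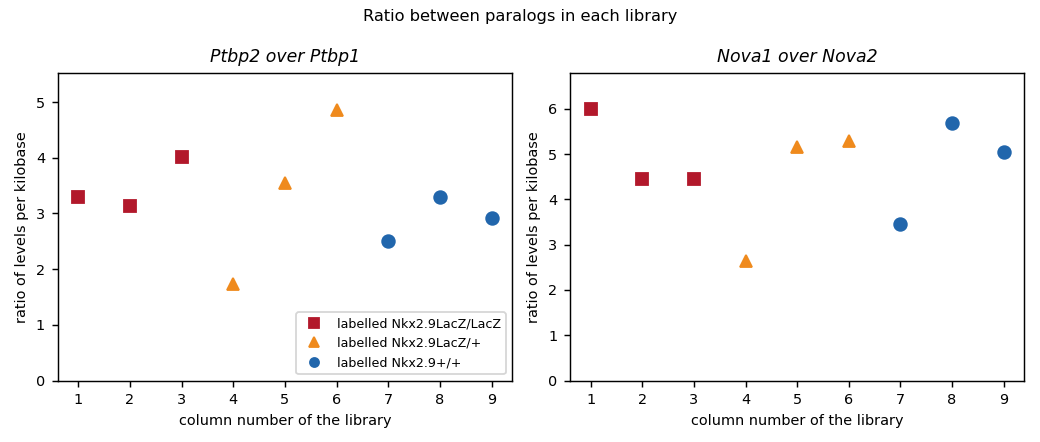
Ratio of *Ptbp2* to *Ptbp1* (left) and of *Nova1* to *Nova2* (right) per kilobase in each library, by column number, with labelled genotype as colour and marker. Columns 4 and 7, the 2 libraries with the fewest reads, have the lowest ratios in both panels (1.73 and 2.50, and 2.64 and 3.46).

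The Elavl proteins bind AU-rich RNA, with *Elavl1* (HuR) in all cells and *Elavl2*, *Elavl3* and *Elavl4* in neurons. *Elavl3* was the fifth highest member, at 380 ± 25.1 per kilobase (SD, n = 9), with 2427, 2658 and 2604, then 2824, 2603 and 2647, then 2894, 2580 and 2335. *Elavl4* and *Elavl2* were at 212 and 176 per kilobase and *Elavl1* at 84.4. *Elavl1* had 890, 848 and 907, then 714, 934 and 1017, then 784, 980 and 798. *Elavl2* had 1526, 1483 and 1547, then 1126, 1575 and 1468, then 1314, 1596 and 1528, and *Elavl4* had 1210, 1062 and 1150, then 978, 1196 and 1163, then 1058, 1245 and 1217. In *Elavl1*, *Elavl2* and *Elavl4* the lowest or next to lowest libraries were columns 4 and 7, and in *Elavl3* these 2 were the highest.

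Among the Celf proteins, which bind GU-rich RNA, *Celf4* and *Celf1* were steady, with coefficients of variation of 4.94% and 5.22% over the 9 libraries. *Celf4*, largely neuronal, was at 261 per kilobase and had 2351, 2174 and 2031, then 2345, 2250 and 2222, then 2387, 2238 and 2171. *Celf1*, widely expressed, was at 127 per kilobase, with 1199, 1056 and 1067, then 1017, 1025 and 1084, then 1122, 1078 and 1039. *Celf2* had 2157, 1881 and 2077, then 1498, 2223 and 2173, then 1862, 2014 and 1888, again with column 4 lowest. Its level of 76.3 per kilobase rests on a merged exon length of 25884 bases, and it was at rank 26 instead of 36 per kilobase of the longest transcript.

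The deviations of columns 4 and 7 followed the base composition of the transcripts. A deviation is log2(normalized count + 1) in a library minus the mean of that value over the 9 libraries. GC content is that of the longest annotated transcript and ran from 34.2% (*Ptbp2*) to 61.8% (*Srrm3*) among the members. Across the 50 members, Spearman's correlation between deviation and GC content was 0.83 in column 4 and 0.48 in column 7. In the other 7 libraries it ran from -0.55 in column 1 to -0.07 in column 2. The members share each library and its scaling, and the mean includes the library itself, so these are descriptions across genes. Among 7499 genes of known GC content whose normalized counts averaged 100 or more, the values were 0.77 in column 4 and 0.44 in column 7, so the members followed a pattern of the libraries as a whole.

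**Figure D3:**
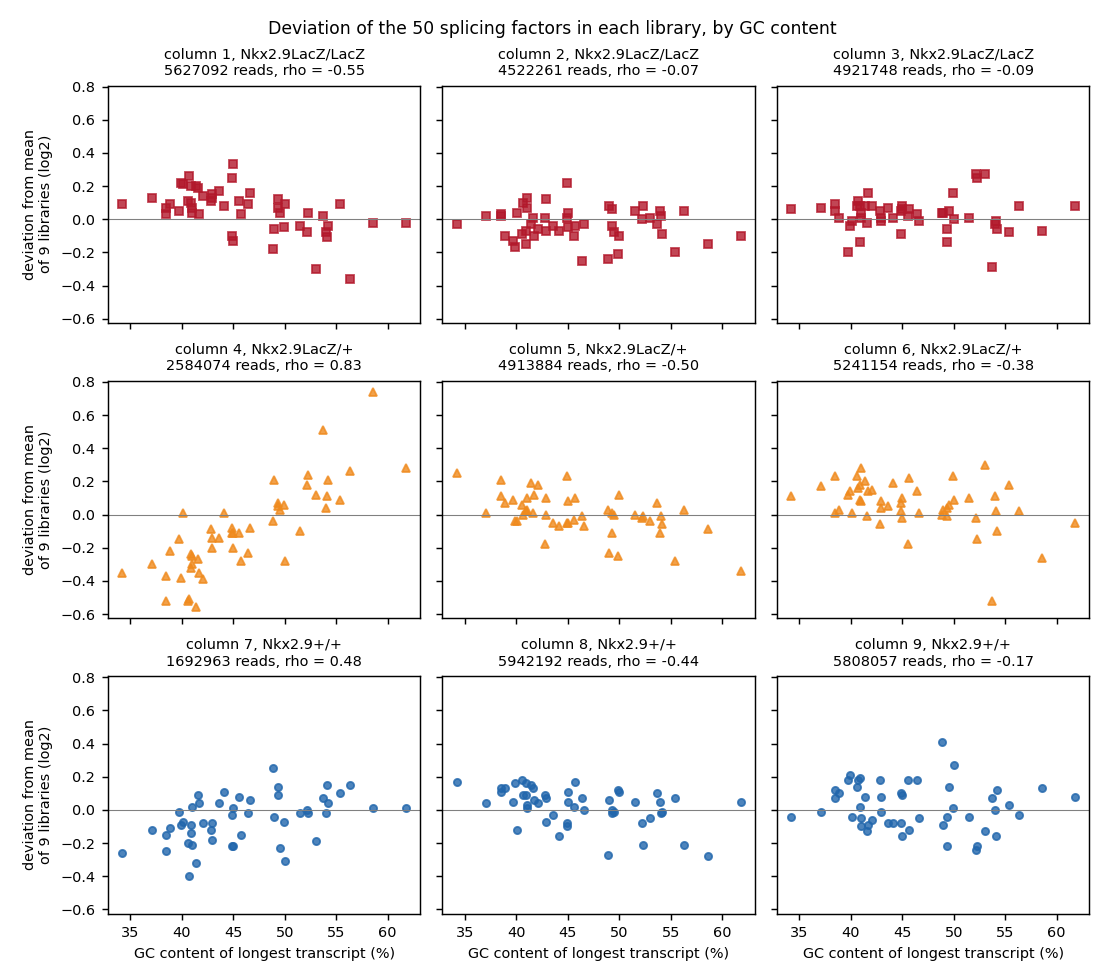
Deviation of each of the 50 members from its mean over the 9 libraries (log2, vertical axis) against the GC content of its longest transcript (%, horizontal axis), 1 panel per library with its read total and Spearman's rho. The points climb steeply in column 4 (rho 0.83), less so in column 7 (0.48), and are flat or slope down in the other 7.

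The 10 members of lowest GC content (34.2% to 40.7%, among them *Ptbp2*, *Nova1*, *Elavl2*, *Elavl4*, *Tra2b* and *Srsf1*) had a median deviation of -0.36 in column 4 and -0.13 in column 7, and 9 and 10 of them were below their mean there. The 10 of highest GC content (52.3% to 61.8%, among them *Ptbp1*, *Nova2*, *Rbfox3*, *Elavl3*, *Srrm2* and *Srrm3*) had a median deviation of 0.23 in column 4, where none was below its mean, but of only 0.03 in column 7, where 3 were below it. Of the 50 members, 23 had their lowest value in column 4, which was also the lowest library for 31.2% of all genes averaging 100 or more. For the paralog pairs above, the member that was low in column 4 was the one of lower GC content, with 34.2% in *Ptbp2* against 53.7% in *Ptbp1* and 38.5% in *Nova1* against 56.3% in *Nova2*. Column 4 also had the highest sum of the midbrain markers (1630 against 982 to 1352 in the others), where *En1* (407), *En2* (407), *Th* (187) and *Foxa2* (122) were at their highest but *Otx2* (205) at its lowest. It had the lowest sum of 6 neuron markers (23991 against 26376 to 30302), with *Map2* (7418), *Dcx* (3779), *Stmn2* (3331) and *Snap25* (285) at their lowest but *Tubb3* (6811) at its highest. Blood markers, 9 in number, summed to 2249 in column 4 and 2165 in column 7, against 1479 to 1881 in the others. The part of depth and of tissue composition in the deviations of these 2 libraries was not tested.

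Each comparison asks whether the level of a factor differs between genotypes. It was made with limma on log2(normalized count + 1), with 9 libraries in one fit, and fold changes on this scale slightly understate those of low genes. Between the ko-labelled and wt-labelled libraries, 1 of the 50 members had an unadjusted p under 0.05 (2%), against 441 of 16993 genes tested (2.60%). No member and none of the 16993 genes (0%) had an adjusted p under 0.05. The members' log2 fold changes ran from -0.26 (*Srsf9*) to 0.28 (*Srrm2*), with a median of 0.03 where all genes had 0.01, and 30 of 50 (60%) were above 0, against 52.3% of all genes. The median was -0.01 without column 7. The lowest value of a member was -0.46 without column 8 and -0.19 without column 9. The median absolute log2 fold change was 0.07 for the members and 0.15 for all genes tested. The members are high in count, and their median spread within genotypes (SD of log2 values) was 0.154, against 0.184 for the 7500 genes with a mean of at least 100.

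The 95% intervals set how large a difference could have gone unseen. Their median half-width over the members was 0.28 on the log2 scale. For ko-labelled against wt-labelled, 45 of 50 intervals lay within a log2 fold change of 0.5 in either direction and all 50 within 1. The counts within 0.5 were 46 for het-labelled against wt-labelled and 44 for ko-labelled against het-labelled, and again all 50 were within 1. The smallest p of an exact two-sided permutation test of 3 libraries against 3 is 0.1, so such a test cannot reach 0.05 here.

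**Figure D4:**
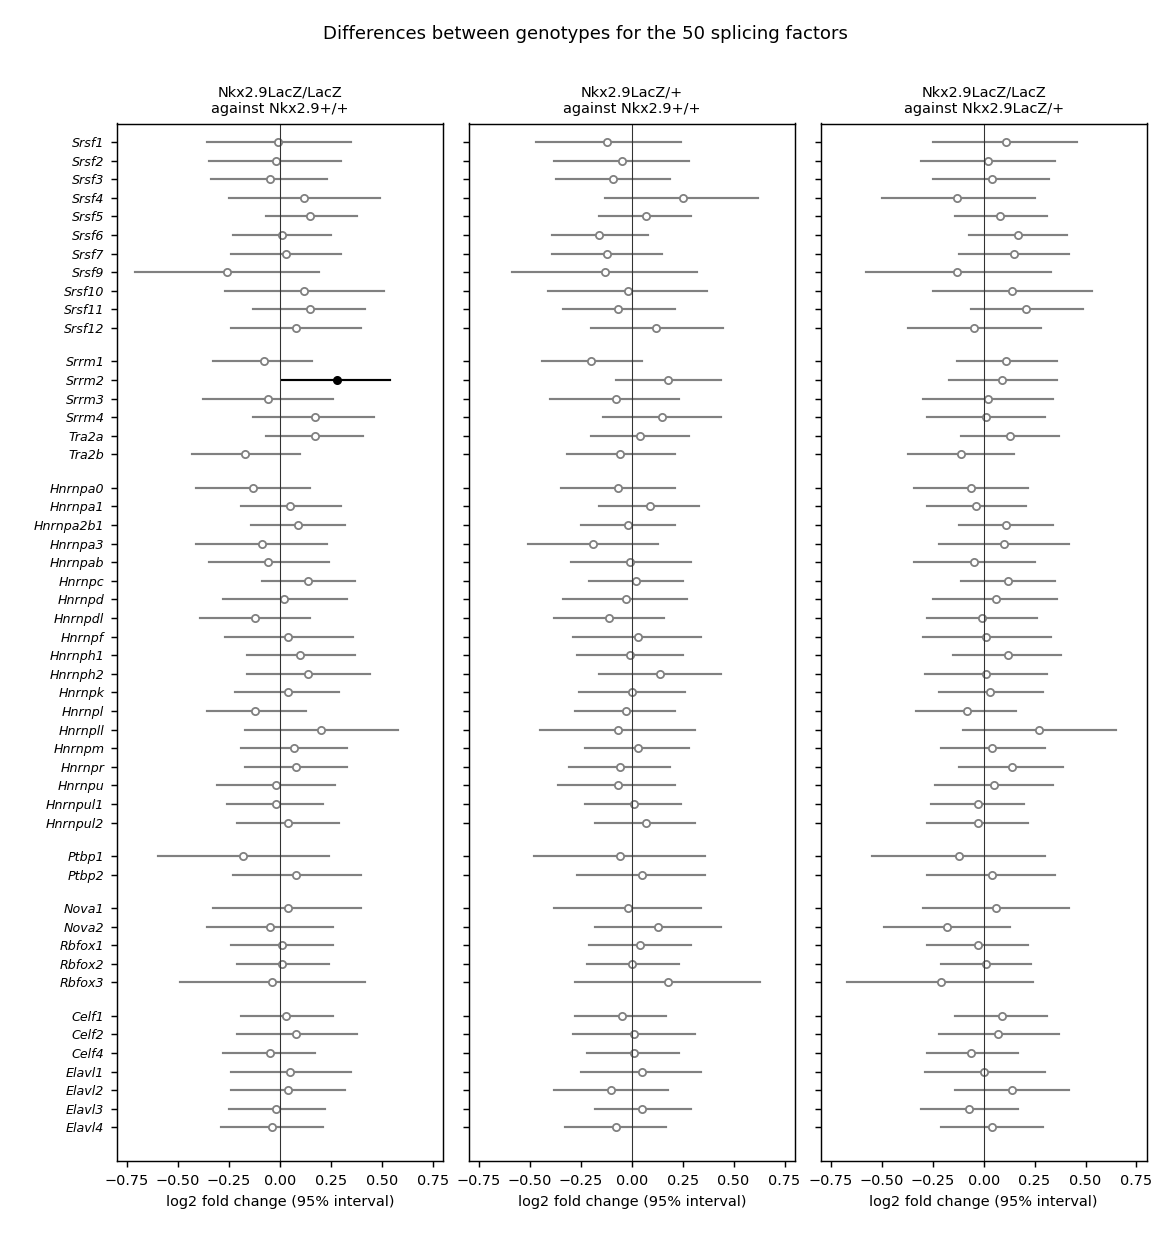
Log2 fold change with its 95% interval (limma) for each of the 50 members in the 3 comparisons between labelled genotypes, grouped by family. Only the interval of *Srrm2* in the left panel (0.01 to 0.54, filled) leaves out 0, and the adjusted p of each member is near 1.

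*Srrm2* was the member with an unadjusted p under 0.05. Its normalized counts were 3389, 3499 and 3916 in the ko-labelled libraries, 3906, 3283 and 2980 in the het-labelled and 3246, 2849 and 2832 in the wt-labelled. All 3 of the first group were above all 3 of the last, while the middle group covered nearly the whole range. The means were 3602 ± 278 and 2975 ± 234 (SD, n = 3 each). This is a ratio of 1.21 and a log2 fold change of 0.28 ± 0.12 (SE, 95% interval 0.01 to 0.54). The paper's list gives this gene the opposite sign, as described above. The limma p was 0.0405 unadjusted and 1.00 adjusted, and the exact permutation p was 0.1. The unadjusted p stayed under 0.05 in 16 of 23 alternatives, including those chosen after seeing the data, and was 0.0389 in edgeR and 0.0316 in DESeq2. The unadjusted limma p was 0.0640 without a minimum count and 0.0976 without the mean-variance trend. It also rose above 0.05 when column 2, 3, 8 or 9 was left out (0.0650, 0.159, 0.114 and 0.110). Fitted by limma without columns 4 and 7, the log2 fold change was 0.34 ± 0.09 (SE) with an unadjusted p of 0.00103, which did not pass adjustment over all genes (no member had an adjusted p under 0.64 there). After a correction for GC content it was 0.29 ± 0.09 (SE) with an unadjusted limma p of 0.00420. *Srrm2* overlaps *Elob* on the opposite strand, and as the strand of the counting is not stated, reads of the shared bases may belong to either.

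*Srrm2* in the het-labelled libraries was in between. Against wt-labelled the log2 fold change was 0.18 ± 0.12 (SE, 95% interval -0.08 to 0.44), and ko-labelled against het-labelled gave 0.09 ± 0.12 (SE, 95% interval -0.17 to 0.36). Both had an adjusted p of 1.00 in limma, and the 2 comparisons share the het-labelled libraries. Single libraries decide both values. Het-labelled against wt-labelled was 0.08 without column 4 and 0.27 without column 6, and ko-labelled against het-labelled was 0.20 without column 4, 0.14 without column 1, 0.03 without column 3 and 0.01 without column 6. Without columns 4 and 7 the former was 0.14 ± 0.10 (SE) with an unadjusted limma p of 0.172 and the latter 0.20 ± 0.09 (SE) with one of 0.0362.

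The values of 6 members (12%) did not overlap between the ko-labelled and wt-labelled libraries, against 9.52% of all genes tested. Beside *Srrm2* these were *Srsf5*, *Tra2a*, *Hnrnph2*, *Hnrnpl* and *Ptbp1*, each with an exact permutation p of 0.1 and a limma p of 0.147 to 0.374. *Srsf5* had 1269, 1129 and 1086 against 1047, 1012 and 1068, a log2 fold change of 0.15 (95% interval -0.07 to 0.38), and 1107, 1067 and 1106 in the het-labelled libraries. *Tra2a* had 857, 726 and 747 against 706, 674 and 682, a log2 fold change of 0.17 (95% interval -0.07 to 0.41), and 671, 697 and 758 in the middle group. In both, column 1 was the highest of the 9 libraries, and without it the log2 fold changes were 0.09 and 0.10. After GC correction that of *Srsf5* was 0.10.

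*Hnrnph2*, an X-linked paralog of *Hnrnph1*, had 371, 380 and 373 against 313, 369 and 336, a log2 fold change of 0.14 (95% interval -0.16 to 0.44), and 305, 387 and 438 in the middle group. It was 0.09 without column 7 and 0.08 after GC correction or with log2 total reads as a covariate. Sex was not balanced between the genotypes. *Xist* was at 4607 to 5182 in the ko-labelled libraries, at most 2929 in the het-labelled and 47.1 to 4342 in the wt-labelled, and 4 Y-linked genes summed to 0 to 2.26, 3.26 to 1058 and 0 to 1075. With log2 *Xist* as a covariate the log2 fold change of *Srrm2* was 0.29 and its unadjusted limma p 0.0589, whereas that of *Ptbp1* went from -0.18 to -0.05, that of *Hnrnpl* from -0.12 to -0.08 and that of *Hnrnph2* from 0.14 to 0.10. The part of sex in these values was not tested further.

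*Hnrnpl* and *Ptbp1*, both silencers of exons, had the lower values in the ko-labelled libraries. *Hnrnpl* had 678, 654 and 667 against 716, 693 and 760, a log2 fold change of -0.12 (95% interval -0.36 to 0.13), and *Ptbp1*, with the values above, -0.18 (95% interval -0.60 to 0.24). Neither passed the test. *Ptbp1* was at -0.09 without column 3 and -0.12 with log2 total reads as a covariate, and *Hnrnpl* at -0.08 without column 9 or after GC correction. Column 4 had the highest value of both (807 and 388). The midbrain markers moved with this comparison too, with a sum of 982 to 1185 against 1258 to 1352, and 2 of the 6 (*En1* and *Pax7*) had an unadjusted limma p under 0.05. The list did not move as one, since *En1*, *En2* and *Pax7* had log2 fold changes of -0.60, -0.44 and -0.63 but *Otx2*, *Th* and *Foxa2* 0.04, 0.25 and 0.17. For *En1*, *En2* and *Pax7* the paper reports the reverse direction, upregulation in the mutant. The 5 choroid plexus markers summed to 18.1 to 27.5 against 28.8 to 75.0, with *Kl* the 1 of 5 under 0.05. The neuron markers were at 28262 to 28391 against 26376 to 28998 and the radial glia and cycling markers at 2594 to 3366 against 2972 to 3388, so these overlapped. So did the sums of 5 endothelium markers (541 to 627 against 531 to 618), 5 microglia markers (77.3 to 108 against 78 to 93.1), 5 meninges markers (172 to 269 against 212 to 319) and the blood markers (1537 to 1881 against 1479 to 2165), and no gene of these lists had an unadjusted limma p under 0.05. The part of tissue composition in the values of the members was not tested.

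**Figure D5:**
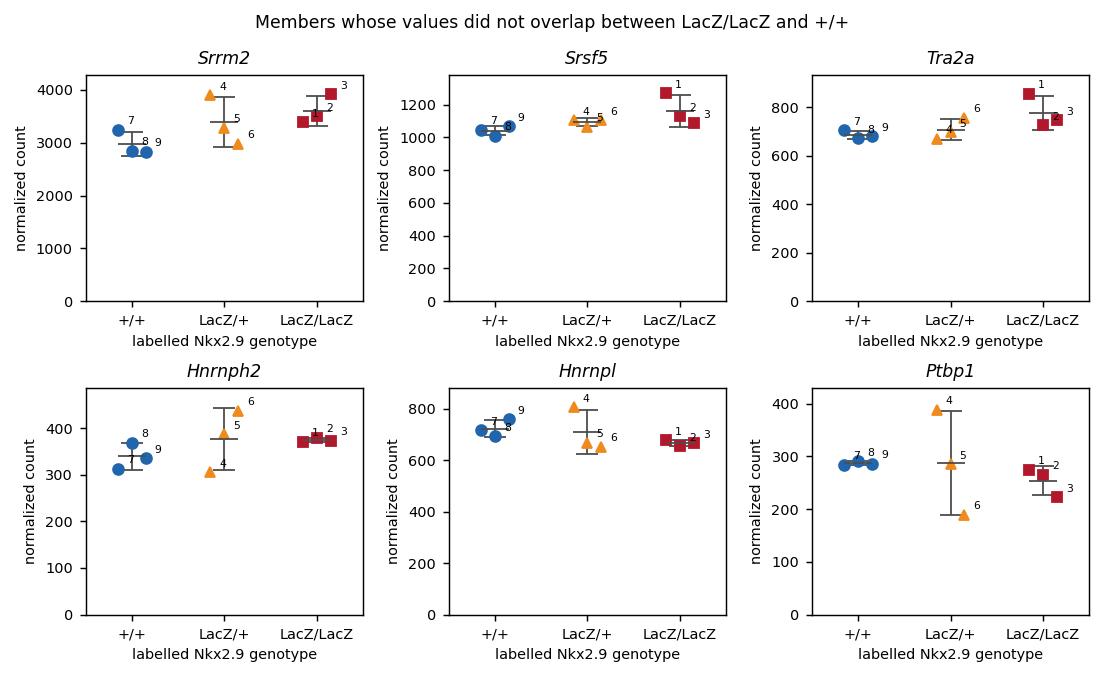
Normalized counts of the 6 members whose values did not overlap between the ko-labelled and wt-labelled libraries, by labelled genotype, with the column number beside each point and mean ± SD (n = 3) as bars on axes from 0. The separations are small, from a ratio of 0.882 (*Ptbp1*) to 1.21 (*Srrm2*), and column 4 widens the middle group in *Srrm2*, *Hnrnph2*, *Hnrnpl* and *Ptbp1*.

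By family, the SR proteins had 7 of 11 members above 0 and a median log2 fold change of 0.03 in ko-labelled against wt-labelled, and the hnRNPs 12 of 19 and 0.04. The Nova and Rbfox genes lay between -0.05 and 0.04, and the Celf and Elavl genes between -0.05 and 0.08, with a median SE of 0.14 and 0.12. *Rbfox2* had a log2 fold change of 0.01 and *Elavl3* of -0.02. *Tra2a* and *Tra2b* differed in sign, with 0.17 and -0.17 (95% interval -0.43 to 0.10 for *Tra2b*), and neither passed the test. Of the SR proteins not given above, *Srsf11* (0.15), *Srsf10* (0.12), *Srsf4* (0.12), *Srsf12* (0.08), *Srsf7* (0.03) and *Srsf6* (0.01) lay above 0 and *Srsf1* (-0.01), *Srsf2* (-0.02) and *Srsf3* (-0.05) below. The interval of each included 0, and each but *Srsf11* changed sign under at least 1 alternative setting, as did 29 of the 50 members in all. Of the hnRNPs, *Hnrnpll* was the highest at 0.20 and *Hnrnpa0* the lowest at -0.13. The wt-labelled values of *Hnrnpll* included 334 in column 7, the library with the fewest reads, beside 470 and 498. The most abundant hnRNPs, *Hnrnpa1* and *Hnrnpa2b1*, were at 0.05 (95% interval -0.19 to 0.30) and 0.09 (-0.14 to 0.32). The widest intervals were those of the low members *Srsf9* (-0.71 to 0.19) and *Rbfox3* (-0.49 to 0.42) and of *Ptbp1*.

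Between het-labelled and wt-labelled, no member had an unadjusted p under 0.05 in limma, against 2.78% of the 16993 genes, and none of these genes (0%) had an adjusted p under 0.05. With edgeR and DESeq2 the count of members was also 0. The values of 2 members (4%) did not overlap, against 6.91% of all genes. *Srsf4* had a mean of 136 ± 16.1 against 114 ± 5.72 (SD, n = 3 each), or 0.25 as log2 fold change (95% interval -0.13 to 0.62), and 0.16 without column 6. *Srrm1*, a coactivator that bridges SR proteins and snRNPs, had 505, 535 and 481 against 574, 552 and 618, a log2 fold change of -0.20 (95% interval -0.44 to 0.05). The members ran from -0.20 to 0.25 with a median of -0.02, and 23 of 50 (46%) were above 0, against 48.6% of all genes. The median was 0.05 without column 4, 0.02 without column 8 and 0.01 after GC correction. Without column 6 it was -0.07, and the members ran from -0.31 to 0.37.

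Between ko-labelled and het-labelled, no member had an unadjusted p under 0.05 in limma, against 2.64% of the genes, and no gene (0%) had an adjusted p under 0.05. The count was 0 with edgeR and DESeq2 as well. The values of 1 member (2%), *Srsf6*, did not overlap, against 8.71% of all genes. *Srsf6* had 1128, 1054 and 1080 against 981, 920 and 1003, a log2 fold change of 0.17 (95% interval -0.07 to 0.41), and of 0.06 after GC correction. The largest value was that of *Hnrnpll*, 0.27 (95% interval -0.10 to 0.65), whose middle group included 310 in column 4 beside 441 and 494. The members ran from -0.21 to 0.27, with a median of 0.04, and 33 of 50 (66%) were above 0, against 53.1% of all genes. The median was -0.03 without column 4 and after GC correction, and the highest value of a member was then 0.20 and 0.15. Without column 6 the members ran from -0.41 to 0.41, with a median of 0.08.

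Other parts of the splicing machinery were read from lists of 9 genes that phosphorylate or import SR proteins (kinases and the import receptor *Tnpo3*), 32 genes of splice site recognition and the core spliceosome, and 36 other splicing regulators. All but *Mbnl3* passed the minimum count. In ko-labelled against wt-labelled, none of these 9 genes and none of the 32 spliceosome genes had an unadjusted limma p under 0.05 in either direction, with median log2 fold changes of 0.09 and -0.03. Of the 35 other regulators tested, 1 was higher and 1 lower, where 2.60% of all genes had such a p. *Hnrnph3*, a relative of *Hnrnph1*, had 408, 384 and 416 against 308, 353 and 330, a log2 fold change of 0.29 ± 0.12 (SE), with a limma p of 0.0281 and an adjusted p of 1.00. *Celf6*, a neuronal Celf protein, had 152, 142 and 135 against 173, 185 and 191, a log2 fold change of -0.35 ± 0.15 (SE), with a limma p of 0.0305 and an adjusted p of 1.00. Neither overlapped between these groups, as was so for 9.52% of all genes, and the het-labelled libraries held 347 to 373 and 141 to 183. In het-labelled against wt-labelled libraries none of the 76 genes tested had such a p (2.78% of all genes). In ko-labelled against het-labelled libraries 1 did (2.64% of all genes), *Prpf3* of the U4/U6 snRNP, which was chosen after its value was seen and had a log2 fold change of 0.36 ± 0.17 (SE) with an adjusted limma p of 1.00.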

How the data were processed

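RNA of E14.5 midbrains was depleted of ribosomal RNA according to the methods (the labels name a phenol-based isolation and an mRNA protocol). Per the submitters' processing notes and the methods, reads were checked with FastQC, aligned with HISAT2 to mm10 (GRCm38) and counted with featureCounts, while versions, annotation release and strand setting are not given in the sources used here. The deposited signal is a normalized count per gene and library, which the authors made by dividing reads by a DESeq2 size factor. The authors' 3 tables of comparisons (fold changes and p-values) were not used, and 0 sample columns were left out. Whole reads were recovered for 100% of 210686 values above 0 (tolerance 0.01), giving 1692963 to 5942192 reads per library. Counting intervals would not cover the spread between libraries. Of 51912 identifiers, 51719 matched GENCODE M21, and 0 entries named no gene.

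limma 3.58.1 (R 4.3.3; lmFit, eBayes with trend) was fitted to log2(normalized count + 1) of 9 libraries over 16993 genes with a mean of at least 5, two-sided, with Benjamini-Hochberg adjustment. Tested on reads drawn with a log2 fold change of 1 in either direction in 200 of 16993 genes for ko-labelled against wt-labelled libraries, limma found 153 at an unadjusted p under 0.05, beside 4.98% of the unchanged genes. That change is larger than the one seen in any member, so the recovery does not apply to differences of their size. The real comparison had 2.60% of all genes under 0.05, so the drawn reads differ from the data in this. Alternatives were pseudocounts of 0.5 and 5, no minimum or 20, only the 6 libraries compared, quantile and upper-quartile scaling, no trend, edgeR 4.0.16 with TMM and DESeq2 1.42.0 on recovered reads, covariates, and leaving out each library. The GC correction (loess of each library's deviation on GC content, span 0.3) and the fit without columns 4 and 7 were chosen after seeing the data. Pseudogene copies were found with blastn 2.17.0, and Python 3.11.15 with matplotlib 3.10.9 made the plots.

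The members, lists and tests were chosen with earlier results of these data known. By rule, full statistics are given for members with an unadjusted p under 0.05 and for *Srrm2*, and values in every library for those, for the 5 highest and 5 lowest members per length, for members not overlapping between ko-labelled and wt-labelled and for the paralog families. Among other splicing genes, those with an unadjusted p under 0.05 in that comparison are named. *Srsf6*, *Srrm1*, *Hnrnpk* and the members named in intervals or deviations were added after their values were seen. One list of marker genes is not reported here.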

Additional observations from a re-analysis of the deposited data

How the results depend on the processing

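The count of members with an unadjusted p under 0.05 in ko-labelled against wt-labelled was 1 (*Srrm2*) in the main comparison and 0 without a minimum count, without the mean-variance trend and with log2 *Xist* as a covariate. Leaving out each library in turn gave 0 to 1. In het-labelled against wt-labelled it was 0, but 1 after GC correction (*Ptbp2*), 1 without columns 4 and 7 (*Srsf6*), and 0 to 1 on leaving out a library (*Hnrnph2* without column 4), where 670 of 16951, 852 and 933 of 16993 genes had such a p. In ko-labelled against het-labelled it was 0, but 1 after GC correction (*Tra2b*), 2 without columns 4 and 7 (*Srrm2* and *Nova1*), and 0 to 2 on leaving out a library (*Hnrnpll* and *Ptbp1* without column 6), where 539 of 16951, 971 and 687 of 16993 genes had one. The cause was not tested. The log2 fold change of *Srrm2* against wt-labelled was 0.21 to 0.34 over 23 alternatives, with p from 0.00103 to 0.159. Of the 50 members, 29, 35 and 35 changed sign under at least 1 alternative in ko-labelled against wt-labelled, het-labelled against wt-labelled and ko-labelled against het-labelled. *Srrm2* and the members that did not overlap in a comparison kept their sign in it. Over all genes, the count with an unadjusted p under 0.05 was 441 of 16993 in ko-labelled against wt-labelled. Over the alternatives it was 263 of 12490 (minimum of 20) to 1135 of 31636 (no minimum). In het-labelled against wt-labelled the count was 473 and 242 to 1137, and in ko-labelled against het-labelled 449 and 288 to 1132, at the same 2 settings. Among alternatives that tested the same 16993 genes, the highest counts were 827 (without column 8), 933 (without column 4) and 971 (without columns 4 and 7), in the same order. In ko-labelled against wt-labelled without columns 4 and 7, 6 genes had an adjusted p under 0.05, none a member, and DESeq2 called 1 gene in het-labelled against wt-labelled. No paired analysis was possible because the columns carry no replicate number. Depth limits mainly *Srsf9*, *Srsf4*, *Srsf12*, *Hnrnpf* and *Rbfox3* in column 7, with 30, 42, 69, 70 and 72 reads.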

Other observations

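The widest relative range over the 9 libraries was that of *Ptbp1*, whose highest value was 2.05 times its lowest, followed by *Rbfox3* with 2.04. Both extremes of *Ptbp1*, 388 in column 4 and 189 in column 6, fell in het-labelled libraries, and the lowest value of *Hnrnpll*, 310, was also that of column 4. The ratio of *Rbfox2* to *Rbfox1* per kilobase, by contrast, was 2.13 to 2.46 in all libraries. The ratio of *Rbfox1* to *Rbfox3* was 3.51 in column 4 and 5.18 to 8.33 in the others, and that of *Elavl3* to *Elavl1* was 5.95 in column 4, 5.55 in column 7 and 3.92 to 4.72 in the other 7.

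After the correction for GC content, Spearman's correlation between deviation and GC content across the 50 members was -0.30 in column 4 and -0.35 in column 7, so it changed sign there, and it was 0.52 in column 3. The correction was fitted over all genes tested, and the members need not follow the same curve. With it, the members' log2 fold changes ran from -0.28 to 0.29 in ko-labelled against wt-labelled, from -0.18 to 0.22 in het-labelled against wt-labelled, and from -0.24 to 0.15 in ko-labelled against het-labelled, where the highest value was 0.27 without it.

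Exons of 16 members overlap a gene on the opposite strand and those of 5 a gene on the same strand. Among them, *Ptbp1* overlaps *Plppr3* and 2 further genes, and *Srsf2* overlaps *Mettl23* and *Mfsd11*.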
